A study of Mus musculus with 15 samples.

Results

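Cytosolic ribosomal protein genes encode the proteins of the large subunit (symbols beginning with Rpl) and the small subunit (Rps) of the ribosome that translates nuclear-encoded mRNAs. They were taken from the count table by symbol, as Rpl or Rps followed by a number, or as Rplp0, Rplp1, Rplp2 and Rpsa, without pseudogenes and without the kinases named Rps6k. Of 55984 gene symbols, 88 matched, and 81 of them had 10 or more counts in at least 3 of the 15 libraries. These 81 genes, 48 of the large and 33 of the small subunit, are the members described here, and all 81 were among the 17488 genes that passed the filter on low counts and were tested. The 7 symbols under the minimum were Rpl10l, Rpl24, Rpl27rt, Rpl32l, Rpl37rt, Rpl39l and Rpl3l. Rpl32l and Rpl37rt had 0 counts in every library, which allows a level of up to 0.0713 to 0.136 CPM (read counts scaled to a common library size) depending on the library (3 counts, counting error only).

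The libraries came from hepatocytes of adult male wild-type C57BL/6JJcl mice, obtained by collagenase perfusion of the liver and sorted by DNA content with Hoechst. Mice 1 to 4 each gave a library of the 2n cells (2n-whole), of the 4n cells (4n-whole) and of the lower gate of the 4n cells (4n-bottom). The upper gate (4n-top) had 3 libraries, from mice 2, 3 and 4. The paper left out the 4n-top sample of mouse 1 because its RNA quality was poor. 4n-top was enriched for mononucleated cells but remained a mixture, and 4n-bottom was mostly binucleated. The study asked how ploidy and the number of nuclei relate to gene expression. After sorting, 2n cells were spun faster and for longer than 4n cells, so an effect of this step and of ploidy cannot be told apart. Total counts ranged from 22049498 to 42096421 per library. Each library shows shares of an RNA pool, so fewer cells of a type and less RNA per cell cannot be told apart, and RNA per cell was not measured.

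A ribosome holds each of its proteins in a fixed number of copies, and these proteins are made in the cytoplasm and assembled with ribosomal RNA largely in the nucleolus. Vertebrate mRNAs for ribosomal proteins typically begin with a C followed by a run of pyrimidines, the terminal oligopyrimidine (TOP) motif, through which mTORC1 and Larp1 regulate their translation and stability. Hepatocytes secrete large amounts of plasma proteins and translate actively. The stalk proteins Rplp0, Rplp1 and Rplp2 of the large subunit bring elongation factors to the ribosome.

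Transcript starts of the members that passed the test in 4n-whole against 2n-whole, and of Rps6, the target of S6 kinase, are shown because the TOP motif lies there. Each line gives 15 bases before and 15 bases from the start annotated in RefSeq on GRCm38.p6, on the strand of the transcript. Capitals mark a C followed by at least 4 further C or T that begins within 5 bases of the start, searched on the transcript strand only.
Rps6 (chr4:86857353-86857382, minus strand): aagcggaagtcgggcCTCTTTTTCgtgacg
Rplp2 (chr7:141447636-141447665, plus strand): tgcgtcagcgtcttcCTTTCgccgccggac
Rpl18 (chr7:45718056-45718085, plus strand): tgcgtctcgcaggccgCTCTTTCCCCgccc
Rps27l (chr9:66946071-66946100, plus strand): ccactcctccccgccgCCTCTatcccggaa
Rps2 (chr17:24720048-24720077, plus strand): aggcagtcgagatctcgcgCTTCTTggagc
Rps19 (chr7:24884577-24884606, plus strand): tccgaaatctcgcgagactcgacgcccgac
Rpsa (chr9:120127751-120127780, plus strand): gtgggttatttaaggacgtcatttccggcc
Rpl37a (chr1:72711245-72711274, plus strand): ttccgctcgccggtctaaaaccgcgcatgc

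A start was listed for 58 of the 81 members, and 14 of these (24.1%) held the run exactly at the start, against 3.01% of 27025 genes of the table with a start. Within 5 bases of the start, the run was present in 29 members (50%) and in 21.2% of all genes. Rps6 and Rplp2 carried it at the first base, while the windows of Rps19, Rpsa and Rpl37a held no such letters. Rps19 and Rps27l have further annotated starts, none of which holds a run, and 1 start is printed for each. Rpl7 has no entry. Where transcripts begin in these cells was not measured, so a window without the run does not show that the mRNA lacks the motif.

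The members differed widely in level. Averaged over the 15 libraries and divided by coding length, their levels had a median of 174 CPM per kb, with a middle 50% from 101 to 269 CPM per kb. Rpl41, which encodes the shortest ribosomal protein, was highest at 999 CPM per kb. It was followed by the stalk gene Rplp1 at 709.7, by Rpsa (the laminin receptor protein of the small subunit) at 595, by the stalk gene Rplp2 at 569 and by Rpl26 at 456 CPM per kb. Coding length leaves out untranslated bases, so a very short coding sequence alone can give a high rank by this measure. Rpl41 has 75 coding bases and measured 55.9 to 98.1 CPM per library, below Rpsa at 346 to 751 CPM. At the other end of the ranking stood Rps10 at 0.625, Rpl35rt at 1.37, Rps27rt at 1.85, Rpl36al at 3.51 and Rpl13a at 4.80 CPM per kb.

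The low values of Rps10, Rpl36al and Rpl13a are hard to read as expression. In the GENCODE M39 annotation on GRCm39, 92.1%, 95.3% and 97.5% of their coding bases lie in exons of another annotated gene on the same strand, and Rpl24, under the minimum, has 83.4% of its coding bases in such an overlap. These were the members with at least 80% overlap, 3 in number, and their mean levels reached at most 2.92 CPM. Rpl35rt and Rps27rt are single-exon copies whose coding sequences match that of Rpl35 at 99.7% of bases and that of Rps27 at every base. Sequence copies were frequent in general: a median of 90.3% of the 50-base stretches of a member's coding sequence had an exact copy elsewhere in the genome. All stretches were copied in 30 members. How reads that fit several places were counted is not given in the sources used here. Across the 80 members with an annotated coding sequence, the level per kb and the copied percentage had a Spearman rho of 0.097, a description over genes of the same libraries.

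**Figure D1:**
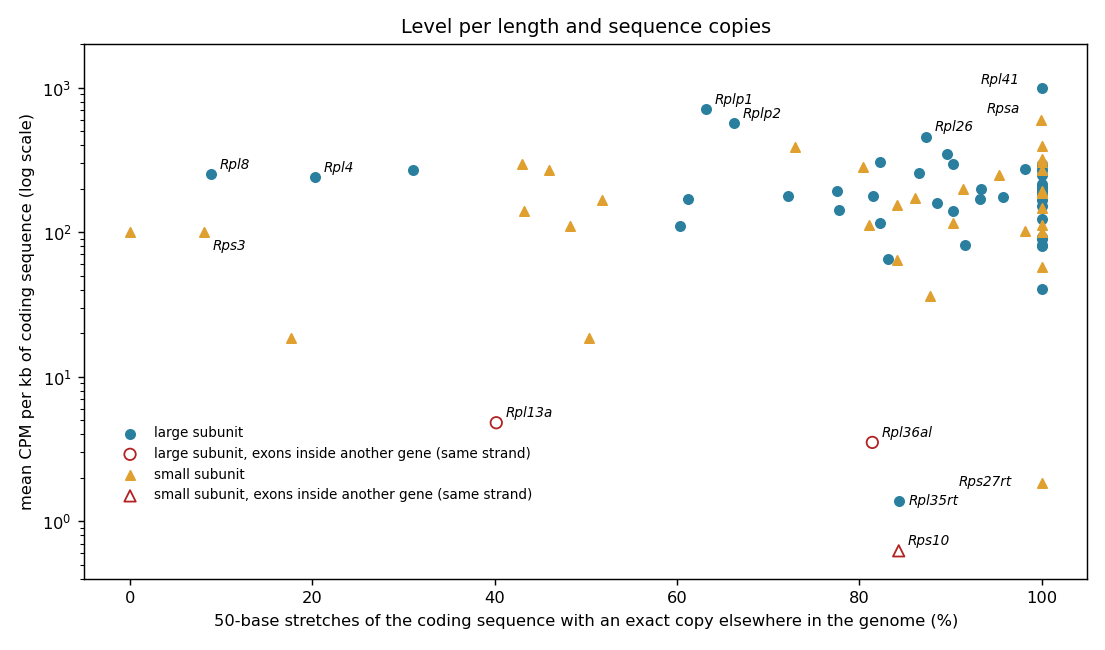
Mean level over the 15 libraries (CPM per kb of coding sequence, log axis) of 80 members against the percentage of 50-base stretches of the coding sequence with an exact copy elsewhere in GRCm39. Circles are large-subunit genes and triangles small-subunit genes, and open red symbols mark the 3 members with at least 80% of coding bases inside another gene on the same strand, which lie at or under 4.80 CPM per kb.

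Together the members took between 0.546% and 0.977% of all counts of a library. The share was 0.693%, 0.678%, 0.546% and 0.647% in 2n-whole of mice 1 to 4, and 0.772%, 0.777%, 0.779% and 0.947% in 4n-whole. It was 0.656%, 0.734%, 0.798% and 0.906% in 4n-bottom of mice 1 to 4, and 0.854%, 0.778% and 0.977% in 4n-top of mice 2, 3 and 4. All 4n-whole and 4n-top libraries lay above all 2n-whole libraries, while the 4n-bottom library of mouse 1 lay below the 2n-whole library of the same mouse. 2n-whole averaged 0.641% ± 0.0663 and 4n-whole 0.819% ± 0.0856 (SD of 4 libraries each). The gates averaged 0.774% ± 0.106 in 4n-bottom (SD, n = 4) and 0.869% ± 0.101 in 4n-top (SD, n = 3).

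Mitochondrially encoded transcripts moved the opposite way and enter the library total against which this share is taken. They took 20.5% to 26.2% of the counts in 2n-whole, 8.84% to 18.5% in 4n-whole, 12.2% to 23.6% in 4n-bottom and 11.9% to 13.0% in 4n-top. With these counts left out of the library total, 2n-whole averaged 0.842% ± 0.0686 and 4n-whole 0.947% ± 0.0882 (SD of 4 libraries each). The gates then averaged 0.921% ± 0.0911 in 4n-bottom (SD, n = 4) and 0.994% ± 0.115 in 4n-top (SD, n = 3). On that scale the 4n-whole library was the higher in 3 of 4 mice, the 4n-bottom library in 2 of 4 mice and the 4n-top library in 3 of 3 mice, against the 2n-whole library of the same mouse. Levels of single genes and fold changes are scaled by TMM (trimmed mean of M values), which sets the bulk of genes level between libraries, while shares, ratios of counts and summed marker levels use plain totals.

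**Figure D2:**
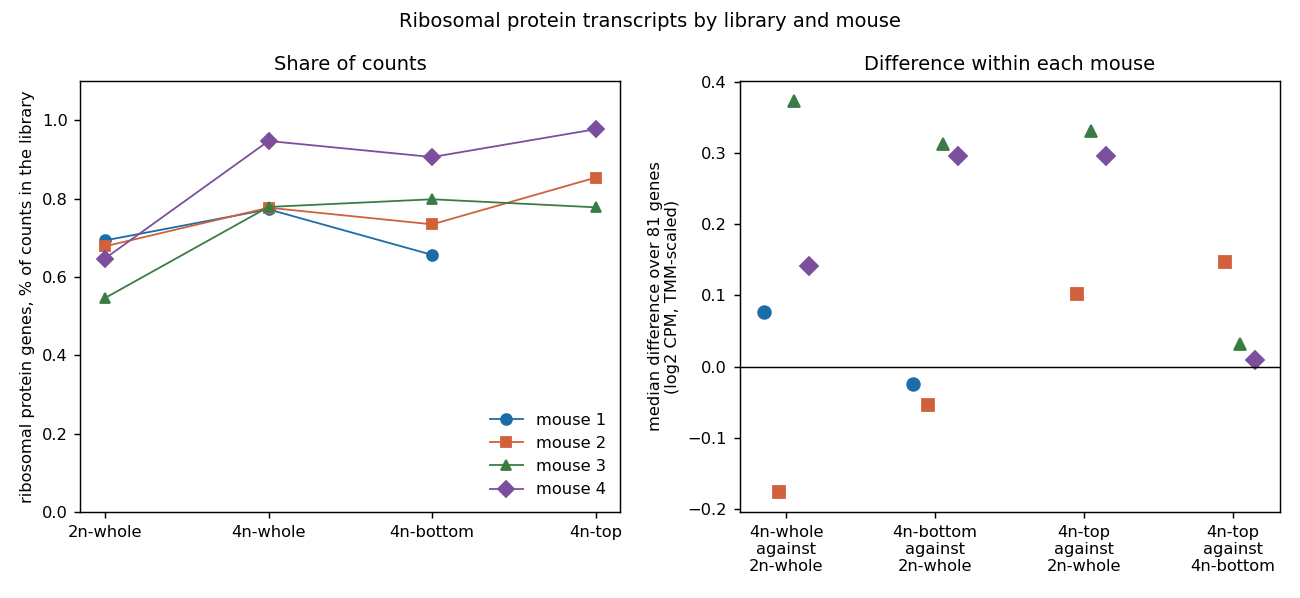
Left, percent of each library's counts on the 81 genes by population, with a line and symbol for each mouse. Right, the median over the 81 genes of the within-mouse difference in TMM-scaled log2 CPM for each comparison, which ranged from -0.18 (mouse 2) to 0.37 (mouse 3) for 4n-whole against 2n-whole.

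In 4n-whole against 2n-whole, 8 of the 81 members rose and 0 fell (edgeR's quasi-likelihood test with the mouse as block, Benjamini-Hochberg adjusted p under 0.05). This is 9.88% of the members, and 2.93% of the 17488 genes tested rose by the same rule and 2.54% fell. The genes that rose were Rps19, Rpsa, Rps2 and Rps27l of the small subunit and Rpl37a, Rpl18, Rpl7 and Rplp2 of the large subunit. On GRCm39 the genes of the small subunit lie at separate loci, Rps19 at chr7:24583796-24589227, Rpsa at chr9:119956755-119961435, Rps2 at chr17:24939082-24940903 and Rps27l at chr9:66853340-66856794. Those of the large subunit are Rpl37a at chr1:72750364-72756093, Rpl18 at chr7:45367445-45370260, Rpl7 at chr1:16171519-16174886 and Rplp2 at chr7:141027274-141031498. Rpl7 lies on the minus strand and the others on the plus strand. The log2 fold changes of the 8 genes ranged from 0.30 to 0.48, so that 0 passed the study's additional limit of 0.5, which 1.74% of all genes tested passed in the upward direction. At an unadjusted p under 0.05, 24 members were higher and 4 lower, and 20.4% of all genes passed in either direction.

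Rps19 encodes a protein needed for maturation of the small subunit and is mutated in Diamond-Blackfan anemia. Its levels were 35.5, 32.7, 42.3 and 43.4 CPM in 2n-whole and 42.3, 51.8, 52.5 and 69.6 CPM in 4n-whole of mice 1 to 4. The 4n-whole library was higher in each mouse although the groups overlapped, with a log2 fold change of 0.48 (SE 0.10, adjusted p = 0.00549, edgeR quasi-likelihood test). Rpsa, the most abundant member in CPM, measured 457, 465, 346 and 399.5 CPM in 2n-whole and 481, 625, 505 and 751 CPM in 4n-whole. Here the groups did not overlap, and the log2 fold change was 0.48 (SE 0.11, adjusted p = 0.0124, edgeR quasi-likelihood test).

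Rplp2 encodes an acidic stalk protein that contacts elongation factors. It measured 159.9, 164, 138 and 172 CPM in 2n-whole and 156, 230.1, 200.3 and 284 CPM in 4n-whole. The gene was higher in 3 of 4 mice, with mouse 1 slightly lower in 4n-whole, and its log2 fold change was 0.42 (SE 0.12, adjusted p = 0.0311, edgeR quasi-likelihood test). Its stalk partners did not pass the threshold. Rplp0, the base of the stalk, had 85.6, 87.0, 90.1 and 84.1 CPM in 2n-whole and 94.4, 99.5, 107 and 134 CPM in 4n-whole, without overlap, at a log2 fold change of 0.31 (SE 0.10, adjusted p = 0.0571, edgeR quasi-likelihood test). Rplp1 had a log2 fold change of 0.11 (SE 0.11) and was higher in 2 of 4 mice.

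Rpl37a, a zinc-binding protein of the large subunit, measured 38.1, 34.04, 43.1 and 40.6 CPM in 2n-whole and 38.3, 52.0, 55.5 and 66.1 CPM in 4n-whole, with log2 fold change 0.42 (SE 0.11). Rpl18 had 53.2, 73.2, 60.0 and 77.6 CPM in 2n-whole and 80.4, 79.3, 79.9 and 100.3 CPM in 4n-whole, with log2 fold change 0.37 (SE 0.10) without overlap of the groups. Both were higher in every mouse, and their adjusted p-values were 0.0197 and 0.0234 (edgeR quasi-likelihood test). Rps2, which lies near the entry of the mRNA channel, had 105, 116, 115 and 125 CPM in 2n-whole and 113, 154, 149 and 171 CPM in 4n-whole, with log2 fold change 0.34 (SE 0.09). Rpl7 went from 134 ± 16.9 to 165 ± 18.7 CPM (SD, n = 4 each), with log2 fold change 0.30 (SE 0.08). Rps27l, the paralog of Rps27 that p53 induces, went from 22.4 ± 2.12 to 29.8 ± 4.98 CPM (SD, n = 4 each), with log2 fold change 0.41 (SE 0.12) with the higher value in 3 of 4 mice. Adjusted p-values of Rps2, Rpl7 and Rps27l were 0.0278, 0.0358 and 0.0462 (edgeR quasi-likelihood test).

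**Figure D3:**
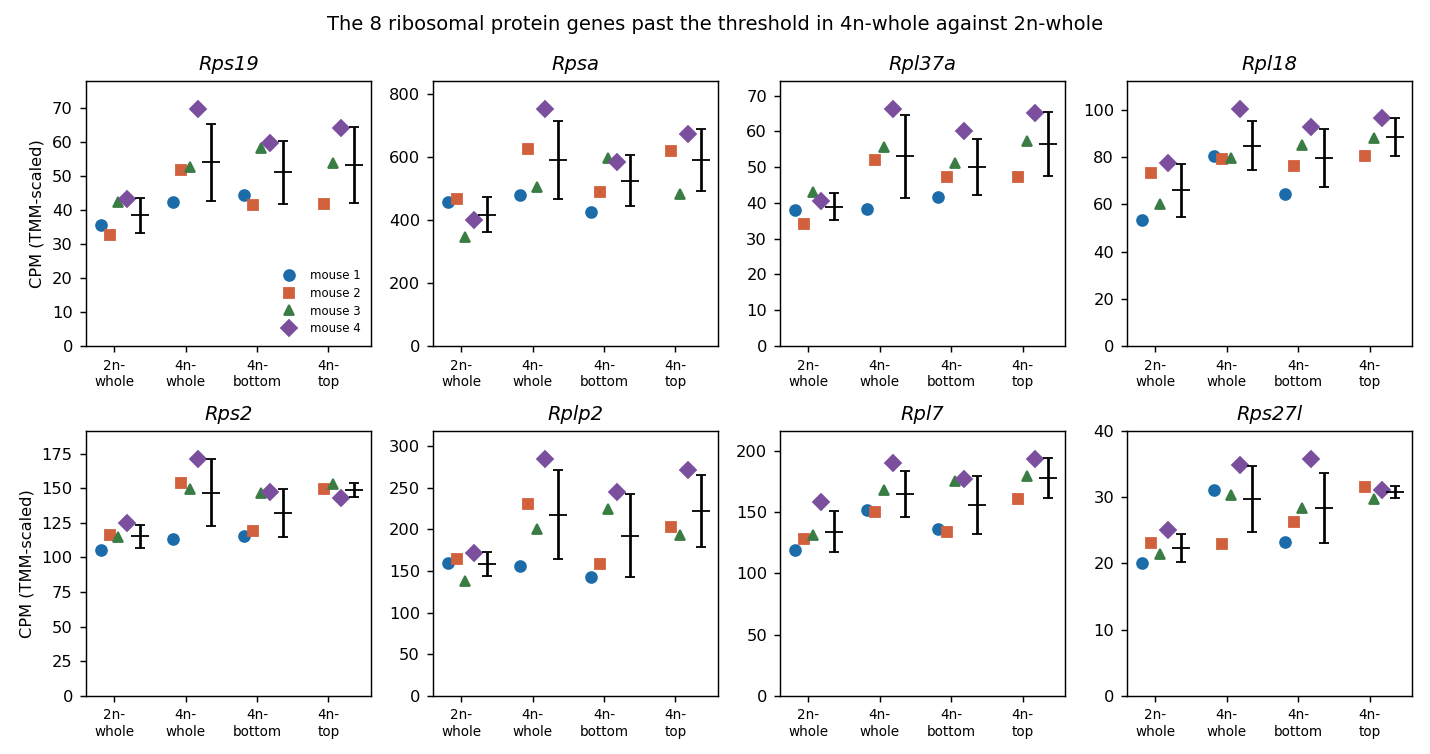
TMM-scaled CPM (vertical axis, from 0) of the 8 members with adjusted p under 0.05 in 4n-whole against 2n-whole, in the 4 populations. Symbols are single libraries by mouse, and black bars give the mean and SD of 4 libraries (3 in 4n-top). Rpsa and Rpl18 are the panels in which 2n-whole and 4n-whole do not overlap.

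The members did not move as a block in this comparison. Of the 81, 54 had a positive log2 fold change, the median was 0.10 (middle 50% from -0.05 to 0.26), and the median over all genes tested was -0.01. The median of the 33 small-subunit genes was 0.12 and that of the 48 large-subunit genes 0.07. Every mouse was higher in 4n-whole for 18 members, against 11.7% of all genes, and every mouse lower for Rps25 alone, against 11% of all genes. Groups did not overlap for 5 members, all higher in 4n-whole (Rpl9, Rpl18, Rplp0, Rps9 and Rpsa), against 2.71% of all genes, and 3.09% of all genes were lower without overlap. Within single mice the median difference was 0.08 in mouse 1, -0.18 in mouse 2, 0.37 in mouse 3 and 0.14 in mouse 4, so mouse 2 went the other way with 27 of 81 members higher.

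The lowest fold changes belonged to Rpl29, Rpl31, Rps25, Rps27a, Rpl37 and Rpl12, and none of these passed the threshold. Rpl29, a heparin-binding protein of the large subunit, measured 175, 189.8, 109 and 159 CPM in 2n-whole and 179, 86.0, 117 and 107 CPM in 4n-whole. Mice 2 and 4 were lower in 4n-whole and mice 1 and 3 were not, and the log2 fold change was -0.37 (SE 0.14, adjusted p = 0.140, edgeR quasi-likelihood test). Rps25, used by internal ribosome entry sites, had 40.4, 37.1, 34.3 and 47.7 CPM in 2n-whole and 38.4, 22.7, 34.3 and 39.0 CPM in 4n-whole, with log2 fold change -0.26 (SE 0.12). Rps27a, made as a fusion with ubiquitin, had a log2 fold change of -0.23 (SE 0.10), Rpl31 of -0.35 (SE 0.15), Rpl37 of -0.24 (SE 0.12) and Rpl12 of -0.19 (SE 0.11). For these genes other than Rps25, the lowest 4n-whole values were those of mice 2 and 4, whose libraries also had the lowest mitochondrial shares of their group, 8.84% and 11.0%, and the part of this in the result was not tested.

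Members with textbook roles beyond the ribosome lay between these ends. Rps6 went from 178 ± 16.5 CPM in 2n-whole to 212 ± 30.6 CPM in 4n-whole (SD, n = 4 each), a log2 fold change of 0.23 (SE 0.10) that did not pass (adjusted p = 0.182, edgeR quasi-likelihood test). Of the proteins that bind Mdm2 when ribosome assembly fails, Rpl11 had a log2 fold change of 0.24 (SE 0.12), Rpl5 of -0.02 (SE 0.12) and Rpl23 of -0.17 (SE 0.11). Rps3, at the entry of the mRNA channel, had 0.15 (SE 0.09), and Rpl10, which completes the large subunit late in assembly, had -0.01 (SE 0.08) on the same log2 scale.

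The 8 calls depended on the libraries. Without mouse 4, and with the libraries of 2n-whole and 4n-whole alone in the fit, 0 members passed, and without the mouse as block 0 passed. Calls over all genes became fewer too, from 513 up and 444 down to 142 and 115, 141 and 181, and 19 and 21, in that order. Members at an unadjusted p under 0.05 were 9 higher and 0 lower without mouse 4 and 17 and 12 without mouse 3. They were 32 and 1 without mouse 2, and 13 and 0 without the block. In the same order 2236 of 18791, 3685 of 18529, 2466 of 18413 and 2027 of 17488 genes tested passed in either direction. The median log2 fold change was -0.02 without mouse 3 and 0.19 without mouse 2. With a correction for GC content and length it was 0.04, with 46 of 81 positive, and Rpl18, Rplp2 and Rps2 no longer passed. Rpl29 fell when mouse 1 or mouse 3 was left out and with no filter on low counts.

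Against the same 2n-whole libraries, 4n-bottom showed 0 of 81 members past the threshold in either direction, with 0.257% of all genes higher and 0.234% lower. At an unadjusted p under 0.05, 19 members were higher and 0 lower (10.2% of all genes in both directions together). The median log2 fold change was 0.13, 67 of 81 were positive, and the median over all genes was 0.00. The smallest p belonged to Rps19, at 44.5, 41.6, 58.3 and 59.8 CPM in 4n-bottom of mice 1 to 4, above the 2n-whole library in each mouse (log2 fold change 0.40, SE 0.10, adjusted p = 0.0873, edgeR quasi-likelihood test). Next came Rpl37a at 0.35 (SE 0.11), Rpl10a at 0.35 (SE 0.11), Rplp0 at 0.29 (SE 0.10), Rpsa at 0.33 (SE 0.11) and Rpl18 at 0.27 (SE 0.10) on the log2 scale. Rpl10a and Rpl27a were the members whose groups did not overlap, 2 in number, against 1.69% of all genes, and 1.83% of all genes were lower without overlap. All 4 mice were higher for 15 members (10.1% of all genes) and lower for 1 (9.5% of all genes). Of the genes with the smallest p on the lower side, Rps27a was at -0.09 (SE 0.10), Rpl30 at -0.13 (SE 0.14), Rpl29 at -0.13 (SE 0.14) and Rpl15 at -0.08 (SE 0.12). Mice 3 and 4 gave median differences of 0.31 and 0.30, while mice 1 and 2 gave -0.02 and -0.05. Leaving out mouse 3 or mouse 4 brought the median log2 fold change to 0.07 in each case. The number of members at an unadjusted p under 0.05 became 5 and 3 (1336 of 18529 and 1360 of 18791 over all genes). That number was 5 without the block (866 of 17488 over all genes). The median was 0.08, with 58 of 81 positive, after the correction for GC content and length.

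4n-top against 2n-whole again gave 0 of 81 members past the threshold, with 0.515% of all genes higher and 0.543% lower. Of the 81 members, 76 were positive, the median was 0.22 and the median over all genes was 0.00. At an unadjusted p under 0.05, 30 members were higher and 0 lower, against 11.3% of all genes in both directions. Without mouse 4, 14 members were higher, where 1089 of 18791 genes tested passed in both directions. In the 3 mice with both libraries, 47 members were higher in every mouse (17.9% of all genes) and 0 lower in every mouse (16.1% of all genes), and for 24 members the 3 4n-top libraries lay above all 4 2n-whole libraries (4.82% of all genes, and 4.39% lower without overlap). The median differences within mice 2, 3 and 4 were 0.10, 0.33 and 0.30.

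Rpl7 had the smallest p, with 160.5, 179 and 193 CPM in 4n-top of mice 2, 3 and 4 against 119, 128, 131 and 158 CPM in 2n-whole of mice 1 to 4. The groups did not overlap, and the log2 fold change was 0.36 (SE 0.09, adjusted p = 0.0579, edgeR quasi-likelihood test). Rpl27a had 103, 102 and 123 CPM in 4n-top against 84.4, 81.5, 75.5 and 88.9 CPM in 2n-whole, at 0.38 (SE 0.10). Rplp0 had 118, 107 and 133 CPM in 4n-top, also above all 2n-whole libraries, at 0.40 (SE 0.11). Rpl37a was at 0.44 (SE 0.12), Rpsa at 0.44 (SE 0.13) and Rps9, of the small subunit, at 0.42 (SE 0.12). On the other side, Rps27a was at -0.06 (SE 0.11), Rpl29 at -0.04 (SE 0.16) and Rpl30 at -0.01 (SE 0.16). With the libraries of 4n-top and 2n-whole alone in the fit, 16 members rose, where 226 of 15298 genes tested rose. With ComBat-seq followed by DESeq2 18 members rose, where 436 of 39114 genes tested rose.

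Between the gates of the 4n cells, 4n-top against 4n-bottom, 0 of 81 members passed and 0 had an unadjusted p under 0.05, and of all genes 0.00572% were called in each direction and 2.79% had an unadjusted p under 0.05. The median log2 fold change was 0.10, with 71 of 81 positive, against a median of 0.00 over all genes, and without mouse 2 the median was 0.06 with 57 positive. Rpl13 had the smallest p, with 207, 186 and 195 CPM in 4n-top of mice 2, 3 and 4 and 129, 171, 160.1 and 199.8 CPM in 4n-bottom of mice 1 to 4 (log2 fold change 0.24, SE 0.12, adjusted p = 1, edgeR quasi-likelihood test). The groups overlapped, and mouse 4 was the lower in 4n-top. Rps28 followed at 0.20 (SE 0.12), Rpl7 at 0.15 (SE 0.09), Rps4x at 0.16 (SE 0.10), Rps16 at 0.17 (SE 0.12) and Rplp1 at 0.17 (SE 0.12). Rps13 at -0.06 (SE 0.15), Rpl35a at -0.08 (SE 0.15), Rps27 at -0.04 (SE 0.15) and Rpl10 at -0.03 (SE 0.09) were on the other side. Within mice 2, 3 and 4 the median difference was 0.15, 0.03 and 0.01, and 11 members were higher in every mouse (10.8% of all genes) and 0 lower in every mouse (11.5%). No member's groups were without overlap, against 1.37% of all genes higher and 1.78% lower. The comparisons with 2n-whole share its 4 libraries, and 4n-bottom and 4n-top each enter a pair of comparisons.

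**Figure D4:**
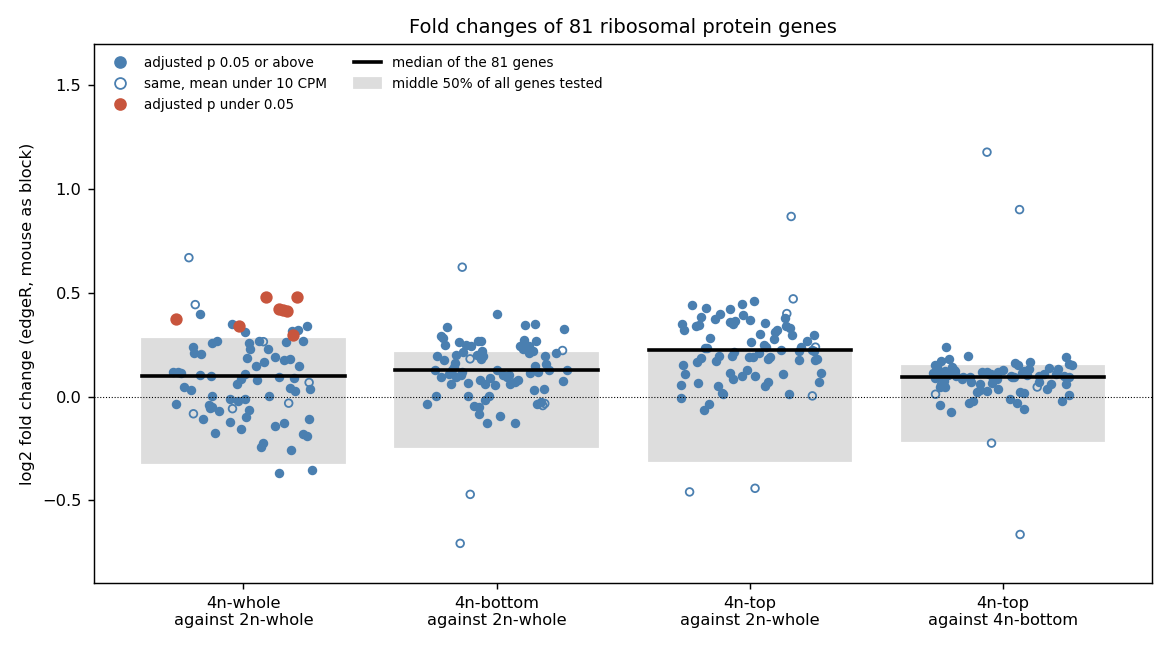
Log2 fold changes (edgeR, vertical axis) of the 81 members in the 4 comparisons. Black lines are the medians of the members, 0.10, 0.13, 0.22 and 0.10 from left to right, grey boxes hold the middle 50% of all 17488 genes tested, and red points are the 8 members with adjusted p under 0.05. Open circles are members with a mean under 10 CPM, which give the widest values.

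Across the populations, with the mouse effect removed, the mean level was lowest in 2n-whole for 50 of the 81 members, in 4n-whole for 28, in 4n-bottom for 2 and in 4n-top for 1. It was highest in 4n-top for 59 members, in 4n-whole for 12, in 4n-bottom for 7 and in 2n-whole for 3. 4n-whole therefore held both ends for many members, with Rps19, Rpsa and Rplp2 at their highest there and Rpl29, Rpl31 and Rpl37 at their lowest. The ratio of large-subunit to small-subunit counts averaged 1.82 ± 0.0298 across 2n-whole and 1.67 ± 0.122 across 4n-whole libraries (SD, n = 4 each). The gates averaged 1.73 ± 0.0775 in 4n-bottom (SD, n = 4) and 1.702 ± 0.0261 in 4n-top (SD, n = 3). In 4n-whole it was 1.84, 1.56, 1.68 and 1.61 in mice 1 to 4, lower than in 2n-whole of the same mouse in 3 of 4. The ratio was lower than in 2n-whole in 3 of 4 mice in 4n-bottom and in 3 of 3 in 4n-top.

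Members varied together between libraries. For the 77 members with at least 1 CPM, the mean correlation of a pair across the 15 libraries, after the means of population and mouse were removed, was 0.353, against 0.0064 over 11630 genes, a description over libraries that the members share. Their median biological coefficient of variation was 11.6%, against 15.5% over the same 11630 genes, which were not matched to the members in level. Fold changes of the members showed mostly weak relations to other properties. The largest Spearman rho in the 4 comparisons was 0.35, with mean CPM in 4n-top against 4n-bottom (81 genes). In 4n-whole against 2n-whole the Spearman rho was 0.18 with mean CPM (81 genes), 0.19 with coding length, 0.20 with coding GC content and -0.17 with the copied percentage (80 genes each), all from the same libraries. The 11 members with under 50% of their coding stretches copied had a median of 0.15, and the 69 others 0.08.

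**Figure D5:**
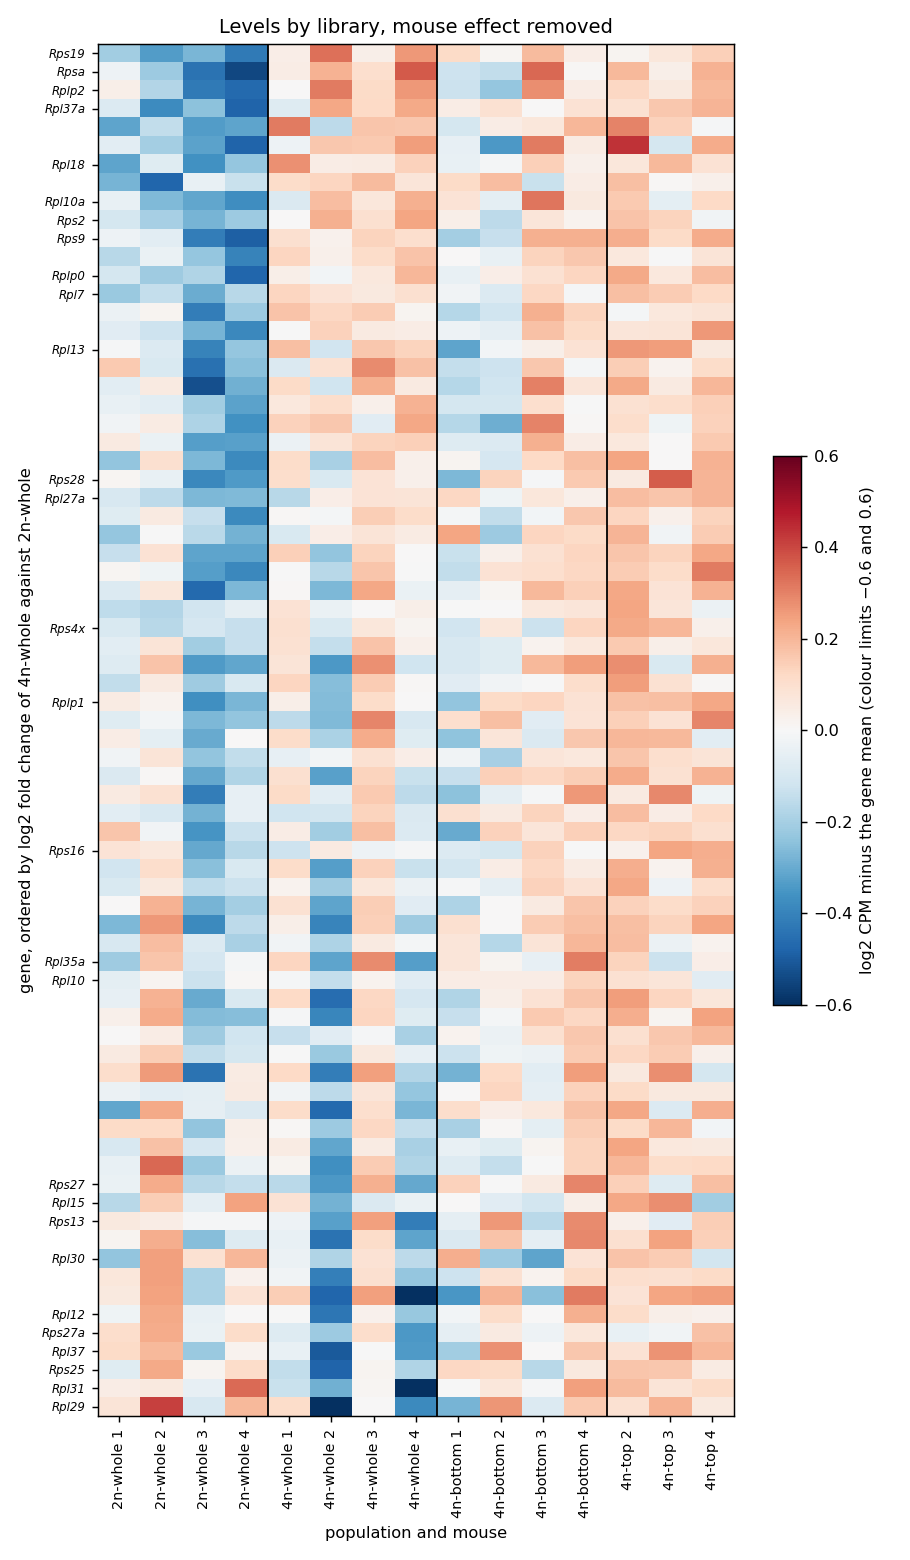
TMM-scaled log2 CPM minus the mean of each gene, with the mouse effect removed, for the 74 members with at least 10 CPM (rows, ordered by the log2 fold change of 4n-whole against 2n-whole, with part of the genes labelled) in 15 libraries (columns, by population and mouse). Rps19 and Rpsa at the top are low in 2n-whole, while Rpl29 and Rpl31 at the bottom are low in the 4n-whole libraries of mice 2 and 4.

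Paralogs with a restricted or divergent copy were read with their sequence likeness in mind. Rps27 and Rps27l match at 76.2% of aligned coding bases, and Rps27 itself had a log2 fold change of -0.11 (SE 0.13) in 4n-whole against 2n-whole beside the 0.41 of Rps27l. The difference between the paralogs was not tested. Rps4l, 79.7% alike to the X-linked Rps4x, had 11.7, 9.42, 12.6 and 15.7 CPM in 2n-whole and 15.3, 14.35, 14.8 and 18.1 CPM in 4n-whole. It was higher in each mouse without passing the threshold (log2 fold change 0.35, SE 0.14), while Rps4x was at 0.15 (SE 0.09). Rpl3, which lines the peptidyl transferase centre, was at 0.26 (SE 0.09), and its muscle paralog Rpl3l had 0 to 21 counts per library. The testis paralogs Rpl10l and Rpl39l had 0 to 14 and 0 to 2 counts. Rpl36a was at -0.10 (SE 0.11), Rpl39 at -0.18 (SE 0.17) and Rpl22 at 0.17 (SE 0.11). Outside the rule, Rpl22l1 was at 0.11 (SE 0.28) and Rpl7l1, a protein of ribosome assembly, at -0.23 (SE 0.10), and neither passed.

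Of the proteins of the ribosome with other names, Rack1, the scaffold on the small subunit, was at 0.21 (SE 0.09) in 4n-whole against 2n-whole, and Fau, which carries Rps30 fused to a ubiquitin-like protein, was at 0.19 (SE 0.10). Neither passed the threshold. In 4n-top against 2n-whole Rack1 rose from 109 ± 6.86 (SD, n = 4) to 148 ± 2.53 CPM (SD, n = 3), a log2 fold change of 0.41 (SE 0.10, adjusted p = 0.0378, edgeR quasi-likelihood test).

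Lists of genes that act with the ribosome gave few calls in 4n-whole against 2n-whole. Among 6 translation elongation factors 0 passed, although all 6 were positive, with a median of 0.23, Eef1d at 0.34 (SE 0.11) and Eef1g at 0.26 (SE 0.09). Of 13 other mRNAs with a TOP motif 0 passed and 4 were positive (median -0.07). Hnrnpa1 at 0.33 (SE 0.11) and Eif4b at 0.24 (SE 0.09), named for their small p, were among the 4 positive and opposite to the list's median. Of 33 ribosome biogenesis genes 0 passed and 23 were positive (median 0.11), led by Ubtf, a factor of ribosomal RNA transcription, at 0.32 (SE 0.11) and Polr1b, a subunit of RNA polymerase I, at 0.43 (SE 0.17). Of 7 snoRNA host genes 0 passed (median 0.11), with Snhg6 at 0.59 (SE 0.33) and Snhg8 at 0.20 (SE 0.19). Of 15 genes of mTORC1 and TOP mRNA control, Eif4e, the cap-binding protein, fell and 0 rose. Eif4e went from 29.4 ± 6.27 to 16.9 ± 4.91 CPM (SD, n = 4 each), with log2 fold change -0.80 (SE 0.15, adjusted p = 0.00164, edgeR quasi-likelihood test), and Rptor, the mTORC1 scaffold, was at 0.21 (SE 0.10). Of 322 ribosomal protein pseudogenes, 69 were tested and 1 rose, with a median of 0.15. Their share of counts was 0.00703% to 0.0126% per library.

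Markers and signs of RNA state that moved with the groups are given beside these results, and their part in them was not tested. Of 9 hepatocyte markers 8 were in the table, with summed levels of 88430 to 116288 CPM in every library, and Apob fell in 4n-whole against 2n-whole (-0.42, SE 0.09). Summed biliary markers were at 31.3 to 45.7 CPM in 2n-whole and 17.8 to 35.3 CPM in 4n-whole, and Spp1 and Sox9 fell in 4n-whole among the 4 tested. In 4n-top, Krt19, Krt7 and Epcam were at 0 in every library. The 6 Kupffer and macrophage markers summed to at most 5.73 CPM, the 6 stellate markers to at most 4.53, the 6 endothelial markers to at most 25.4 CPM in any library, with 0 calls each. Against 2n-whole, the median log2 fold changes in 4n-whole, 4n-bottom and 4n-top were -0.75, -1.60 and -1.33 for the endothelial markers and -1.45, -1.58 and -3.75 for the 5 Kupffer and macrophage markers tested. Kdr, an endothelial receptor, was at -1.61 (SE 0.54) in 4n-bottom, and Vsig4, a Kupffer cell receptor, was at 0 in every 4n-whole library. The 6 lymphocyte markers summed to at most 0.590 CPM and were all under the filter. Of 5 erythroid and neutrophil genes, Hbb-bs, S100a8 and S100a9 were at 0 in every library. The list still summed to 57.8 to 108 CPM per library. In 4n-top Hba-a1 was also at 0, so that the 60.9 to 103 CPM there came from Alas2. In 4n-whole against 2n-whole, 15 of the 16 mitochondrially encoded genes tested fell. Of 6 dissociation response genes, Jun and Hspa1b rose, and of the nucleus-retained RNAs Malat1 rose.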

How the data were processed

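RNA of sorted hepatocytes was sequenced with a stranded SMART-Seq kit. The authors deposited raw read counts per gene symbol, and the submitters' processing notes name STAR 2.7.11a, featureCounts of Subread and GRCm39. The annotation and the strand and multi-mapping settings are not given in the sources used here. The subject number in the labels was taken as the mouse. All 21 pairs of libraries of the same mouse had positive correlations across genes after population means were removed (0.084 to 0.227). Genes were filtered with edgeR 4.0.16 (minimum count 10, minimum total 15), scaled by TMM and fitted in a quasi-likelihood model of 15 libraries with population and mouse, with Benjamini-Hochberg adjustment over 17488 genes. The fit was tested on simulated data. CPM is TMM-scaled unless given as a share, and list sums use plain totals. Coding lengths, overlaps and 50-base copies came from GENCODE M39 on GRCm39, and transcript starts from RefSeq on GRCm38.p6. Log2 levels used a prior count of 2, with the mouse removed by limma 3.58.1. Named genes were the 6 members of smallest p in each direction per comparison, members with known roles or paralogs, the 5 highest and 5 lowest per length, and up to 2 genes per other list. Members, lists and rules were chosen with earlier results of these data known. Alternatives used DESeq2 1.42.0 and sva 3.50.0 among others. Total counts of 22049498 to 42096421 limit the precision of genes with few counts, and p-values measure the spread of libraries left after population and mouse are fitted. Some items of the lists are not reported here.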

Additional observations from a re-analysis of the deposited data

Results flagged for a closer look

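Among 108 groups of 4 libraries checked for a library far from the others (Dixon's test), 3 were found, and chance alone flags about 1 in 20 groups. The members' share of counts in 4n-whole of mouse 4 was 0.947%, where the other 3 lay between 0.772% and 0.779%. Rpl18 in 4n-whole of mouse 4 was at 100.3 CPM, against 79.3 to 80.4 CPM in the other mice. Rpl13 in 2n-whole of mouse 3 was at 118 CPM, against 159.9 to 163 CPM in the others.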

How the results depend on the processing

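The count of members called in 4n-whole against 2n-whole was 8, where 513 of all 17488 genes tested rose and 444 fell. It was 0 with no replicate block (19 of all genes rose and 21 fell). In the libraries of the compared groups only it was 0 (141 and 181 of 14828). ComBat-seq then DESeq2 gave 19 (1172 and 1258 of 39114), and library totals without TMM 36 (2347 and 233 of 17488). With the study's fold limit the count was 0 (305 of all genes up and 302 down). Leaving out mouse 4 gave 0 (142 and 115 of 18791). The highest count on leaving out a mouse was 10 (mouse 1, where Rpl29 fell, 547 and 479 of 16245). For 4n-bottom against 2n-whole, 0 became 1 with DESeq2 and the block, 1 with no filter, 1 in the compared groups only, 1 without TMM and 8 with ComBat-seq then DESeq2. For 4n-top against 2n-whole, 0 became 4 with DESeq2 and the block, 3 with no filter, 16 in the compared groups only, 2 with the GC and length correction, 28 without TMM and 18 with ComBat-seq then DESeq2, and leaving out a mouse gave 0 to 5. In the order given, all genes that rose against 2n-whole numbered 69, 100, 62, 104 and 235 in 4n-bottom (45 in the main fit). In 4n-top they numbered 139, 159, 226, 130, 514 and 436 (90 in the main fit), and 45 to 116 with a mouse left out. Between 14714 and 39304 genes were tested in these settings. 4n-top against 4n-bottom stayed at 0 members in all of them. Leaving out the block changed no other count of members called. At an unadjusted p under 0.05 the members went without it from 28 to 13 in 4n-whole and from 19 to 5 in 4n-bottom, against 2n-whole. Over all 17488 genes these numbers went from 3570 to 2027 and from 1777 to 866.

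Library totals without TMM were added after the data were seen and move the median of all genes to 0.20 (4n-whole), 0.13 (4n-bottom) and 0.17 (4n-top) against 2n-whole. The members' medians were then 0.30, 0.25 and 0.39, that is above those of all genes in each. Without mitochondrial counts the shares were 0.842%, 0.947%, 0.921% and 0.994% for 2n-whole, then 4n-whole, 4n-bottom and last 4n-top. Of the recomputed fold changes of named genes, 535 kept direction and side of the threshold, 43 newly passed it, 40 no longer did and 18 changed sign, with no called gene among the last. Without TMM these were Rpl12 in 4n-whole against 2n-whole (0.012), Rpl10 (0.014) and Rps27 (0.0090) in 4n-top against 4n-bottom, Rps27a (0.030) and Rpl15 (0.041) in 4n-bottom against 2n-whole, and Rps27a (0.11), Rpl29 (0.14) and Rpl30 (0.16) in 4n-top against 2n-whole. Rps10 was at 0.36 in the compared groups only. Leaving out a mouse gave -0.076 to 0.042 for Rpl10, -0.12 to 0.022 for Rps27 and -0.82 to 0.60 for Rpl36al in 4n-top against 4n-bottom. In 4n-top against 2n-whole it gave -0.15 to 0.0046 for Rps27a, -1.18 to 0.50 for Rps27rt, -0.91 to 0.18 for Rps10, -0.16 to 0.056 for Rpl29 and -0.11 to 0.12 for Rpl30. The causes were not tested. The 7 members under 10 CPM are limited by depth, with SEs up to 1.35 on the log2 scale.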
